A study of Homo sapiens with 8 samples.

Results

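Open chromatin was examined at 7 loci that encode sensors of foreign or misplaced nucleic acids and their adaptors, in H1650 cells, an established line from a human non-small cell lung cancer. The loci were DDX58, IFIH1, DHX58, MAVS, TLR3, TMEM173 and MB21D1. The study silenced hMENA, an actin regulatory protein encoded by ENAH, and profiled the cells by ATAC-seq, in which a transposase inserts adapters into accessible DNA. Cells transfected with a mix of siRNAs to exon 11a (siMena11a), to silence the epithelial isoform hMENA11a, or with a pool against total hMENA (siMena) were set beside cells given a non-targeting pool (siControl) and beside untreated cells. Each group had 2 libraries, every siRNA was given at 20 nmol/L by lipid transfection, and all groups were the same line in the same medium. The labels do not say whether the replicates were separate cultures or how long after transfection cells were taken, so spread between replicates may be technical. Peaks of the 8 deposited lists were merged where they overlapped or touched, which made 46665 regions. The 21 regions that overlapped a fixed hg19 window around 1 of the 7 genes are described here. They were numbered along each chromosome, so that DDX58-2 is the second region of the DDX58 window.

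RIG-I (DDX58) and MDA5 (IFIH1) are cytosolic helicases that bind viral or misplaced double-stranded RNA, and LGP2 (DHX58) is a related helicase, without the signalling domains of the other two, that modulates them. RIG-I and MDA5 signal through MAVS, an adaptor on mitochondria, to the kinases that switch on type I interferon genes. TLR3 detects double-stranded RNA in endosomes, and cGAS (MB21D1) detects DNA in the cytosol and signals through STING (TMEM173). RIG-I, MDA5, LGP2 and TLR3 are themselves induced by interferon in many cell types. The question set by the study's design text is whether loss of hMENA11a acts through RIG-I and interferon signalling in tumour cells, and ATAC-seq bears on the chromatin of these genes only, not on their mRNA or protein.

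The RefSeq promoters of RIG-I, MDA5, TLR3 and MAVS (build GRCh38.p14) are shown for their paired GAAA repeats, a feature of elements that interferon regulatory factors recognise. Of these 4, 3 hold such a pair in either of the spacings searched, while that of MAVS does not. Each is printed in the direction of transcription, 250 bases before the annotated start and 20 after it, with matches in capitals.
RIGI (DDX58), chr9:32526177-32526446, minus strand: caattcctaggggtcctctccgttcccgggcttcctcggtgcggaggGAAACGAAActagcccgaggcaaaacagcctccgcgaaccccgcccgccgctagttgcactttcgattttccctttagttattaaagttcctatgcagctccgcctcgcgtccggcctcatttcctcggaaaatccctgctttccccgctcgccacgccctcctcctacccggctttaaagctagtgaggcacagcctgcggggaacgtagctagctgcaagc
IFIH1, chr2:162318665-162318934, minus strand: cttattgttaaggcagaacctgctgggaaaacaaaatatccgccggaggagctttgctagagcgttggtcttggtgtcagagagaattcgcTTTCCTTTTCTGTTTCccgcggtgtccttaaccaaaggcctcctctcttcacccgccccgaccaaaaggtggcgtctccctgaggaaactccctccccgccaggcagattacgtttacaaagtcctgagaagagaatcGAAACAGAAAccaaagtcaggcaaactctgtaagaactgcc
TLR3, chr4:186068906-186069175, plus strand: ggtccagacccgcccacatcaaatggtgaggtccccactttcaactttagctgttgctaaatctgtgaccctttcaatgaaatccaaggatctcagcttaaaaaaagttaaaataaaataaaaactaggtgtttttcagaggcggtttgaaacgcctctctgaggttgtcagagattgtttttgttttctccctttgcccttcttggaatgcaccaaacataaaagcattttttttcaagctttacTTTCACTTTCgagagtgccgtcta
MAVS, chr20:3846584-3846853, plus strand: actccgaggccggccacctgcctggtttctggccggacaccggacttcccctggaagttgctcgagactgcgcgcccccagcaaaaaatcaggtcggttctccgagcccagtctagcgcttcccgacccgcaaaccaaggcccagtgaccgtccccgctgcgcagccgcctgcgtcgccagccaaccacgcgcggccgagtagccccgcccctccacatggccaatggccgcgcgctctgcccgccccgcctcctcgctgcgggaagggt

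The motifs searched were GAAANNGAAA and GAAANGAAA, on both strands. The first was found in IFIH1 3 times, with 2 overlapping matches on the reverse strand, and in TLR3 once on the reverse strand, and it occurs in 3.30% of 35116 promoter windows of that length. The second, with a shorter spacing, was found once in RIGI, where the first was not found, and it occurs in 2.90% of them. Either motif occurs in 5.93% of these windows. No match of one motif overlapped a match of the other in these promoters. The peaks are on hg19 and no sequence or gene model of that build was used here, so whether a listed region covers one of these promoters was not determined. For the same reason the regions carry the name of their window and not of a promoter, exon or intron, and the identity of the line was not checked against marker genes. By RefSeq gene order, the nearest protein-coding neighbours are ACO1 and TOPORS for DDX58, FAP and GCA for IFIH1, C17orf113 and KAT2A for DHX58, AP5S1 and PANK2 for MAVS, SORBS2 and FAM149A for TLR3, SMIM33 and UBE2D2 for TMEM173, and DDX43 and MTO1 for MB21D1. A region in a window can belong to a neighbour.

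Replicate 2 lists were shorter than replicate 1 lists in each group, at the sensor loci as elsewhere. Replicate 1 lists held 14678 to 35472 peaks and replicate 2 lists 1020 to 22424, although the genome-wide background, a measure of depth, was 0.538 to 0.935 tags per position in replicate 1 and 1.09 to 2.88 in replicate 2. In siMena11a libraries, 17 and 3 of the 21 regions were listed in replicates 1 and 2, against 74.6% and 5.92% of all regions. In siMena libraries, 9 and 0 were listed, against 30.2% and 2.14% of all regions. In siControl libraries, 13 and 3 were listed, against 56.7% and 10.9%, and in untreated libraries 17 and 10, against 72.4% and 46.4%. The order of the libraries was the same for the sensor loci as for all regions, apart from ties. Regions of 1 window share their libraries and are not replicates. To be listed where the local background equalled the genome-wide one, a summit needed at least 5 to 7 tags in the replicate 1 libraries and 7 to 13 in the replicate 2 libraries. This was 6.81 to 9.29 times the genome-wide background in replicate 1 and 4.52 to 6.43 times in replicate 2. Where the local background was higher, more tags were needed. An unlisted region is one that did not reach the limit at its own local background, not one shown to be closed. A peak in bulk cells cannot tell a larger share of cells with open DNA from more open DNA per cell.

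**Figure D1:**
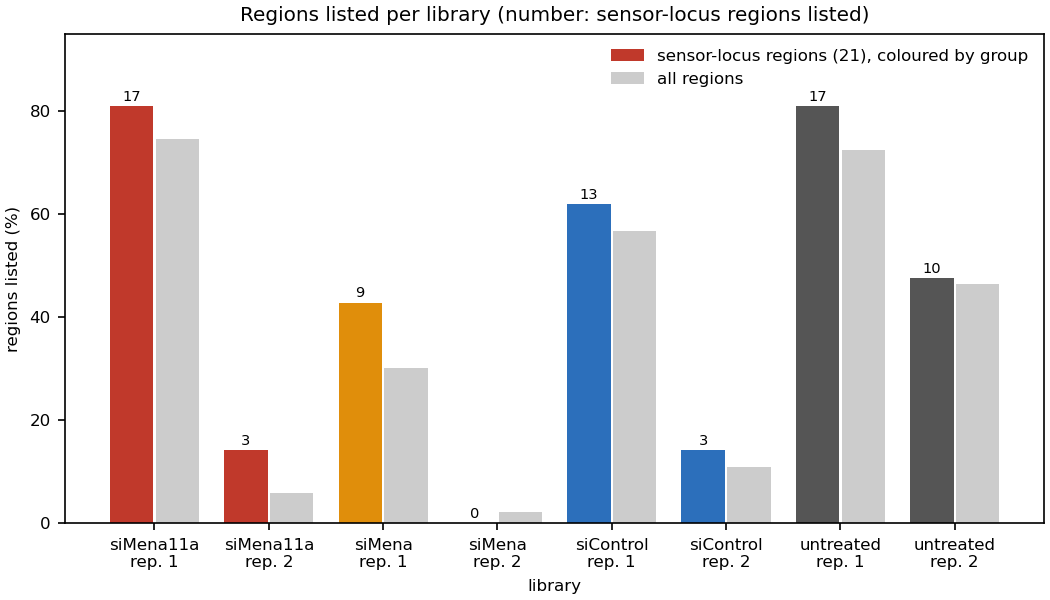
Percentage of regions listed in each library, for the 21 sensor-locus regions (coloured bars, with their number on top) and for all 46665 regions (grey bars). The coloured bars follow the grey ones, from 17 regions in siMena11a replicate 1 and untreated replicate 1 to 0 in siMena replicate 2.

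Of the 21 regions, 9 were listed in all 4 replicate 1 libraries, 3 in 7 libraries, none in all 8, and 7 in a single library. All of the 3 regions listed in 7 libraries lay in the IFIH1 window, and siMena replicate 2 was the library that missed them. A listing in 7 libraries was held by 3.18% of all regions and a listing in 1 library by 31.2%. Only 542 of the 46665 regions were listed in all 8, so none among 21 is near that background. The share of all regions listed in all 4 replicate 1 libraries was not computed. The median width of the 21 was 470.0 bp, against 394.0 bp over all regions.

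**Figure D2:**
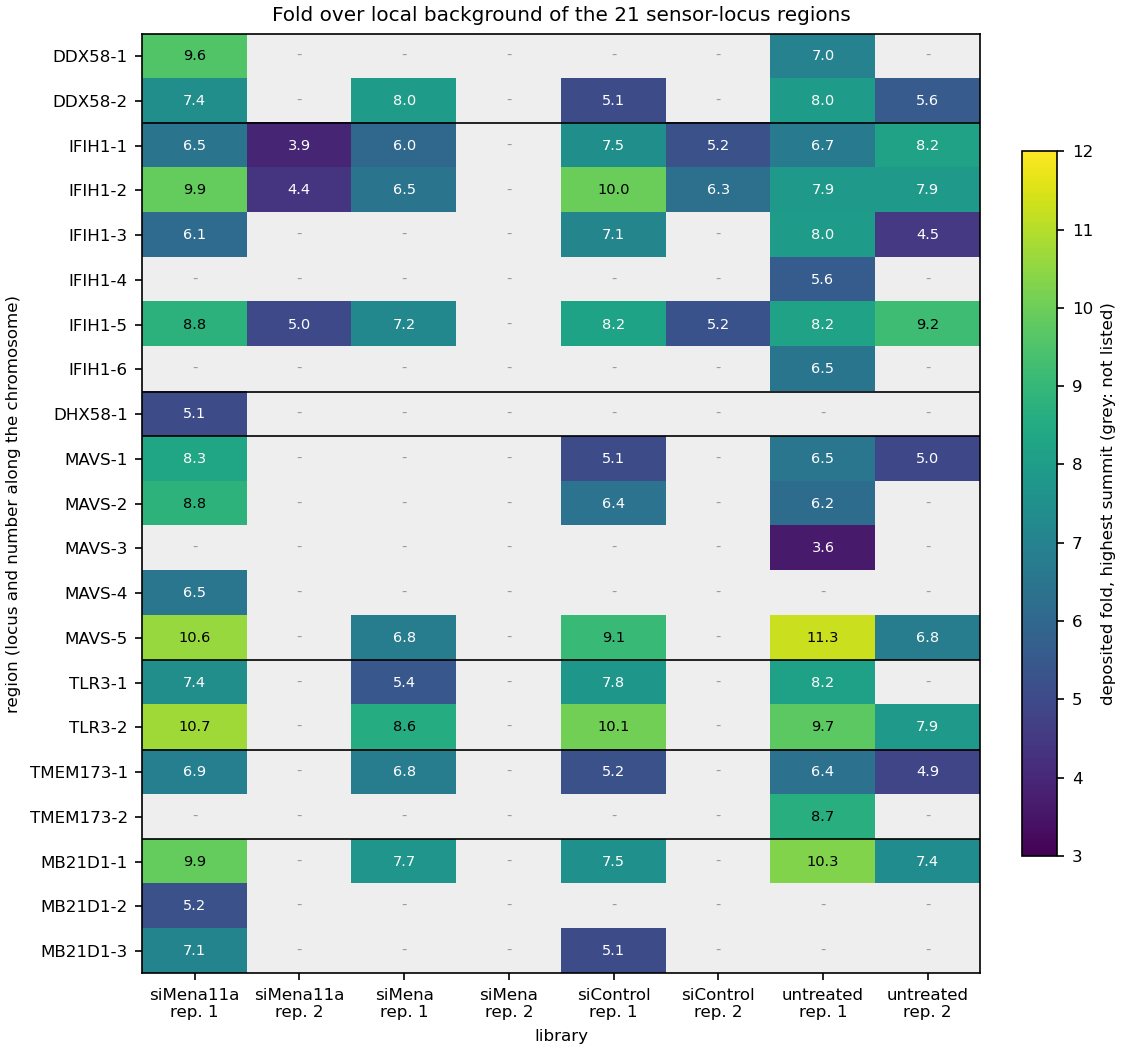
Deposited fold over local background at the highest summit of each of the 21 regions (rows, grouped by locus) in each of the 8 libraries (columns). Grey cells are regions not listed. IFIH1-1, IFIH1-2 and IFIH1-5 fill 7 columns, while DHX58-1 fills 1.

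The RIG-I window held a wide region listed in 5 libraries and a narrow one listed in 2. The fold of a peak, as deposited, is the ratio of tags at its summit to the local background, with 1 added to each. DDX58-2 lay on chromosome 9 from 32526007 to 32526785 (hg19). Its fold was 7.44 with siMena11a, 7.98 with siMena, 5.10 with siControl and 7.97 untreated among the replicate 1 libraries, and 5.59 in untreated replicate 2. Replicate 2 of each transfected group did not list it. The lowest of the 4 replicate 1 values was that of siControl. DDX58-1, from 32502551 to 32502859, reached 9.57 in siMena11a replicate 1, against 6.98 in untreated replicate 1, and was listed nowhere else.

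DDX58-2 had 2 summits, and the libraries differed in which of them was listed. A left summit, 105 to 156 bp before the centre of the region, and a right summit, 218 to 252 bp after it, were each listed in 4 libraries. The left and right folds were 7.44 and 5.67 with siMena11a (replicate 1), while untreated replicate 1 showed 6.12 and 7.97 and untreated replicate 2 showed 4.86 and 5.59. In siMena replicate 1 the right summit only was listed, in a peak from 32526466 to 32526785, and siControl replicate 1 the left one only, in a peak from 32526095 to 32526426. These 2 peaks do not overlap each other and count as 1 region only through the wider peaks of the other libraries. The folds rest on few tags: 28 in siMena11a replicate 1 (95% exact Poisson interval 18.6 to 40.5), 18 in siMena replicate 1 (10.7 to 28.4), 15 in siControl replicate 1 (8.40 to 24.7), 21 in untreated replicate 1 (13.0 to 32.1) and 15 in untreated replicate 2 (8.40 to 24.7). The intervals cover counting error only and overlap between all of these libraries, whose depths differ.

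**Figure D3:**
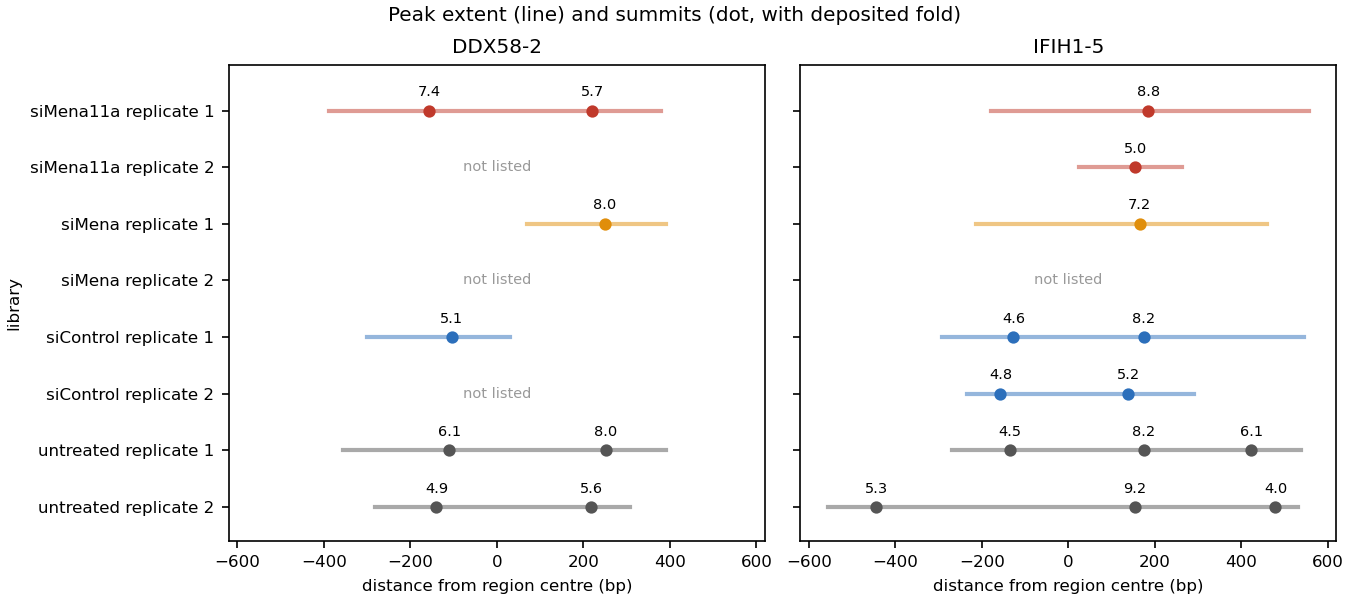
Peak extent (line) and summits (dots, labelled with the deposited fold) of DDX58-2 and IFIH1-5 in each library, by distance from the centre of the region in bp. At DDX58-2, siMena replicate 1 has only the right summit and siControl replicate 1 only the left. At IFIH1-5, every library that lists the region has a summit 139 to 185 bp right of the centre.

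The MDA5 window held the most widely listed regions of the 7 loci. Of these, IFIH1-1 and IFIH1-2 lay close to the window edge at 163.1 Mb, on the side of the neighbour FAP. Which gene they belong to was not determined. At IFIH1-5, on chromosome 2 from 163174549 to 163175659, the fold was 8.78 and 5.00 in siMena11a libraries (replicates 1 and 2), 7.19 in siMena replicate 1, 8.22 and 5.25 in siControl libraries, and 8.19 and 9.22 in untreated libraries. At IFIH1-2, from 163102175 to 163102770, it was 9.88 and 4.40 in siMena11a, 6.45 in siMena replicate 1, 9.96 and 6.31 in siControl, and 7.86 and 7.85 in untreated libraries. At IFIH1-1, from 163101081 to 163101550, it was 6.47 and 3.93 in siMena11a, 6.01 in siMena replicate 1, 7.49 and 5.22 in siControl, and 6.71 and 8.17 in untreated libraries. In each of these regions the 2 transfected replicate 2 libraries that listed it were below every other library, and untreated replicate 2 was not. The same held for whole lists, whose median fold was 4.56 in siMena11a replicate 2 and 4.86 in siControl replicate 2. It was 5.91 to 6.65 in the other libraries that listed these regions. The main summit of IFIH1-5 was in the same place in all 7 libraries, 139 to 185 bp after the centre, and further summits appeared in both siControl and both untreated libraries but in neither siMena11a library. A single summit in both siMena11a and more in both siControl libraries was seen at 1.11% of the 2065 regions listed in all 4 of them, a pattern chosen after these values were seen. The 2065 include regions with a single siControl summit, which cannot show it. The share among regions with more summits in both siControl libraries was not computed, nor was that of the reverse pattern. In siMena replicate 1 the main summit stood alone as well.

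The other 3 regions of that window were listed less widely. IFIH1-3, from 163118050 to 163118449, stood at 6.13 with siMena11a, 7.08 with siControl and 7.95 untreated in replicate 1, and at 4.51 in untreated replicate 2. IFIH1-4 and IFIH1-6 appeared in untreated replicate 1 alone, with folds of 5.62 and 6.49 from 8 and 9 tags. DHX58-1, on chromosome 17 from 40263927 to 40264128, was the only region of the LGP2 window, and siMena11a replicate 1 alone listed it, with a fold of 5.07 from 14 tags. That fold lay at the 20.1 percentile of the regions in its list. A listing in siMena11a replicate 1 alone was shared by 5199 regions, 11.1% of all.

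The MAVS window held 5 regions, none of them listed in a transfected replicate 2 library. MAVS-5, on chromosome 20 from 3869313 to 3870142, was the strongest, at 10.6 with siMena11a, 6.80 with siMena, 9.11 with siControl and 11.3 untreated in replicate 1, and at 6.79 in untreated replicate 2. MAVS-1, from 3800748 to 3801594, stood at 8.33 with siMena11a, 5.10 with siControl and 6.54 untreated in replicate 1 and at 4.97 in untreated replicate 2, and neither siMena library listed it. MAVS-2, from 3827258 to 3827762, had 8.80, 6.43 and 6.19 in replicate 1 of siMena11a, siControl and untreated. By highest summits, the siMena11a library stood above all others that listed the region at MAVS-1 and MAVS-2, and untreated replicate 1 did at MAVS-5. MAVS-4 was listed in siMena11a replicate 1 alone (fold 6.54) and MAVS-3 in untreated replicate 1 alone (fold 3.65).

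The TLR3 window had 2 regions, both listed in all 4 replicate 1 libraries. TLR3-2, on chromosome 4 from 187000151 to 187000818, had folds of 10.7 with siMena11a, 8.57 with siMena, 10.1 with siControl and 9.75 untreated in replicate 1, and of 7.85 in untreated replicate 2. These lay between the 76.6 and 92.4 percentiles of the regions in their lists. In replicate 1 of siMena11a, siMena and siControl the region had the highest fold of the 21. TLR3-1, from 186989213 to 186989536, had 7.44 with siMena11a, 5.43 with siMena, 7.76 with siControl and 8.16 untreated, and no replicate 2 library listed it.

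The cGAS and STING windows each had 1 widely listed region. MB21D1-1, on chromosome 6 from 74104282 to 74105120, had folds of 9.88 with siMena11a, 7.69 with siMena, 7.53 with siControl and 10.3 untreated in replicate 1, and of 7.37 in untreated replicate 2. It had a left and a right summit in all of these libraries, and siMena replicate 1 listed them as 2 separate peaks. TMEM173-1, on chromosome 5 from 138861749 to 138862434, had folds of 6.88 with siMena11a, 6.82 with siMena, 5.23 with siControl and 6.36 untreated in replicate 1, and of 4.87 in untreated replicate 2. As at DDX58-2 and MB21D1-1, the siControl library was the lowest of replicate 1 by highest summits, and the share of all regions with that order was not computed. A second summit of TMEM173-1, 191 bp after the centre and with a fold of 5.10, was listed in siMena11a replicate 1 alone. MB21D1-3 was listed in siMena11a replicate 1 (7.07) and siControl replicate 1 (5.09), MB21D1-2 in siMena11a replicate 1 (5.22) and TMEM173-2 in untreated replicate 1 (8.67).

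Silencing of hMENA11a was compared with the control siRNA to ask whether chromatin at the sensors opens or closes with it. No sensor-locus region was listed in both siMena11a libraries and neither siControl library, a pattern shown by 0.0279% of all regions, and none had the opposite pattern, shown by 0.0557%. A count of 0 among 21 regions is near that background. Without siMena11a replicate 2 the gained regions would number 4. That rule sets 1 library against 2 and is looser, and its share over all regions was not computed. Only IFIH1-1, IFIH1-2 and IFIH1-5 were listed in all 4 libraries, as were 2065 regions in all, whose median log2 fold difference was -0.085. Relative to that median, the difference for siMena11a minus siControl was -0.23 at IFIH1-1, -0.18 at IFIH1-2 and 0.097 at IFIH1-5, the last of which turned to -0.086 with tags over the genome-wide background in place of the fold. The two-sided exact permutation p on the deposited log2 folds was 0.667, 0.667 and 1.0 (1.0 each after Benjamini-Hochberg adjustment over the 2065 regions), where 0.333 is the smallest p that 4 libraries allow. After each library was scaled to its median over the 2065 regions, IFIH1-2 was lower in both siMena11a than in both siControl libraries, which held for 11.4% of these regions, and the groups overlapped at the other two.

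Within replicate 1, 4 sensor-locus regions were listed with siMena11a and not with siControl (DDX58-1, DHX58-1, MAVS-4 and MB21D1-2), as were 24.2% of all regions, and none in the opposite direction (6.25% of all). Here 1 library stands against 1, so these differences have no replicate check. Of the 13 regions listed in both, 7 lay above and 6 below the median ratio of 1.09 over the 23530 regions listed in both libraries, and the median of the 13 relative to it was 0.090 on the log2 scale. None was 1.5 times higher or lower relative to that median, while 5.00% and 4.02% of the 23530 were. The ends of the range were MAVS-1, at 1.49 times the median ratio, and IFIH1-1, at 0.790 times. A further MAVS-1 summit listed in both libraries was at 0.819 times, below the median ratio. DDX58-2 was at 1.33 times, with the left summit highest in both libraries. The highest summits lay more than 100 bp apart at TLR3-2 and MB21D1-3. By highest summits TLR3-2 was at 0.973 times the median ratio, against 1.01 times at its left summit and 0.793 times at its right one. MB21D1-3 was at 1.27 times the median ratio by its highest summits and at 0.998 times by the summit that both libraries listed. Within replicate 2, both lists held the same 3 IFIH1 regions, with siMena11a at 0.844, 0.780 and 1.07 times the median ratio at IFIH1-1, IFIH1-2 and IFIH1-5. At IFIH1-1 the highest summits of the 2 replicate 2 libraries lay 126 bp apart, and no summit within 100 bp was listed in both. The difference over all 4 libraries at IFIH1-1 includes these unlike summits. By highest summits, IFIH1-1 and IFIH1-2 lay below the median ratio in both replicates, and the share of all regions that did so was not computed.

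**Figure D4:**
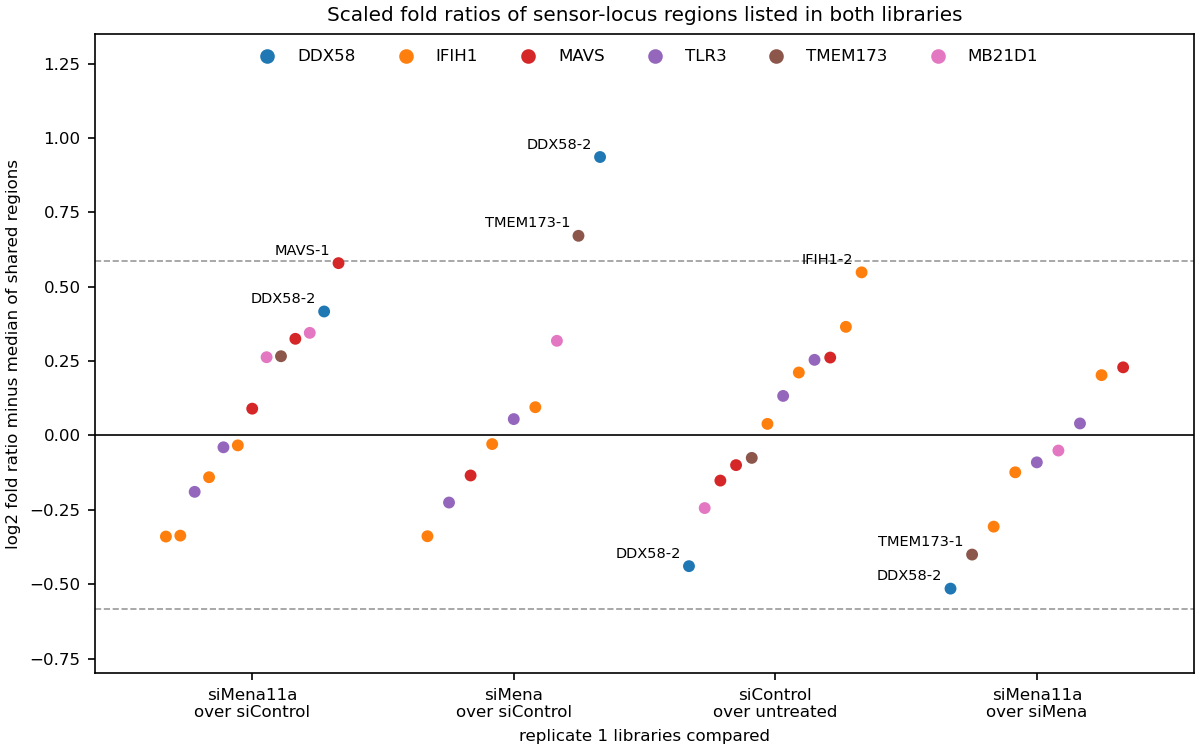
Log2 ratio of deposited folds between replicate 1 libraries, minus the median over all regions listed in both, for each sensor-locus region listed in both (dots, coloured by locus). Dashed lines mark 1.5 times the median ratio. DDX58-2 and TMEM173-1 pass the upper line for siMena over siControl, and no region passes the lower one. Each dot compares highest summits, which at DDX58-2 are different summits in every comparison but siMena11a over siControl.

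Silencing of total hMENA was compared with the same siControl libraries, so the values of both comparisons are not independent. No sensor-locus region was listed in both siMena libraries and neither siControl library (0.00214% of all regions), and none was lost by that rule (1.03%). Since siMena replicate 2 listed none of the 21, no region could be compared over all 4 libraries. Without siMena replicate 1 the 3 IFIH1 regions would count as lost, under a looser rule whose share over all regions was not computed. Within replicate 1, 4 regions were listed with siControl and not with siMena (IFIH1-3, MAVS-1, MAVS-2 and MB21D1-3), as were 28.2% of all regions, and none the other way (1.81%). Of the 9 regions listed in both, 5 lay above and 4 below the median ratio of 0.819 over 13266 regions, with a median of 0.055 on the log2 scale relative to it. DDX58-2 reached 1.91 times and TMEM173-1 1.59 times the median ratio, which makes 2 of the 9 past 1.5 times, while 4.31% of the 13266 regions were that much higher and 4.62% that much lower. The DDX58-2 ratio sets the right summit in the siMena library against the left summit in the siControl library, and no summit of that region was listed in both. At IFIH1-1 and MB21D1-1 the highest summits of the 2 libraries also lay more than 100 bp apart. MB21D1-1 was at 1.25 times the median ratio by its highest summits and at 0.873 times by its left summit. By its right summit MB21D1-1 was at 1.51 times, past the 1.5-fold limit. The 2 of the 9 and the shares beside them refer to highest summits only. At TMEM173-1 the summits lay 26 bp apart, with 17 tags in siMena (9.90 to 27.2) and 15 in siControl (8.40 to 24.7). Both ratios rest on siControl replicate 1, and replicate 2 of both groups listed neither region.

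Control transfection was set against untreated cells. No sensor-locus region was gained (0.120% of all regions) or lost (3.65%) over both replicates. DDX58-2 counted as lost when peaks had to span 50% of a region, since the siControl replicate 1 peak covers the left part alone. Among the 4356 regions listed in all 4 libraries the median log2 fold difference was -0.42. Relative to it, siControl minus untreated was 0.18 at IFIH1-1, 0.44 at IFIH1-2 and 0.020 at IFIH1-5, while the differences of the deposited log2 folds were -0.24, 0.013 and -0.40. The two-sided exact permutation p was 0.667, 1.0 and 0.667 (0.870, 1.0 and 0.870 after Benjamini-Hochberg adjustment over the 4356 regions). After scaling, IFIH1-2 was higher in both siControl than in both untreated libraries, as were 17.6% of those regions. This comparison and that of siMena11a share the siControl libraries.

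Within replicate 1, MB21D1-3 was listed with siControl and not in untreated cells, as were 6.93% of all regions, and 5 regions were listed in untreated cells only (DDX58-1, IFIH1-4, IFIH1-6, MAVS-3 and TMEM173-2), as were 22.7% of all. The 12 regions listed in both fell 7 above and 5 below the median ratio of 0.867, with a median of 0.086 on the log2 scale relative to it. None passed 1.5 times in either direction, which 4.77% of the 23212 shared regions did upwards and 5.16% downwards. DDX58-2 was the lowest, at 0.737 times the median ratio, and IFIH1-2 the highest, at 1.46 times. The DDX58-2 value sets the left summit in the siControl library against the right summit in the untreated one. At the left summit, listed in both, siControl had 5.10 and untreated 6.12, which is 0.961 times the median ratio. The highest summits also lay 406 bp apart at MB21D1-1, which was at 0.882 times the median ratio at its left summit and at 0.696 times at its right one. Within replicate 2, 7 of the 10 regions listed in untreated cells were not listed with siControl, the remaining 3 being those of the IFIH1 window. Over all regions, 36.6% were listed in untreated replicate 2 and not in siControl replicate 2, which is 78.9% of the regions in that untreated list, so the 7 of 10 is near the background.

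The isoform-specific and the total knockdown were also set against each other. No sensor-locus region was gained with siMena11a over siMena (0.240% of all regions) or lost (0.00643%), except that IFIH1-1 counted as gained when peaks had to span 50% of a region. Within replicate 1, 8 regions were listed with siMena11a and not with siMena, as were 45.5% of all regions, and none the other way (1.07%). Of the 9 regions listed in both, 3 lay above and 6 below the median ratio of 1.33, with a median of -0.091 on the log2 scale relative to it, and none passed 1.5 times in either direction (5.19% of 13610 shared regions upwards and 5.12% downwards). DDX58-2 had the lowest ratio, 0.700 times the median, and MAVS-5 the highest, 1.17 times. The DDX58-2 ratio sets the left summit in the siMena11a library against the right summit in the siMena library. At the right summit, listed in both, siMena11a had 5.67 and siMena 7.98, which is 0.534 times the median ratio and past the 1.5-fold limit. The highest summits also lay more than 100 bp apart at IFIH1-1, TLR3-2 and MB21D1-1. At their left and right summits, TLR3-2 was at 1.30 and 0.765 times the median ratio and MB21D1-1 at 1.38 and 0.669 times. These ratios at like summits were computed after the values were seen, and the share of all regions past the limit refers to highest summits only. In replicate 2, siMena11a listed the 3 IFIH1 regions and siMena none, while 4.18% of all regions were listed in that siMena11a library only, which is 70.5% of its list.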

How the data were processed

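The deposited files are 1 peak list per library, called separately. The labels name the molecule as total RNA and the library source as transcriptomic, although the title says ATAC-seq. The lists were treated as ATAC-seq. The submitters' processing notes name MACS2 2.2.5, Bowtie2 2.3.4.2, SAMtools 1.7, FastQC 0.11.5 and build hg19; trimming, duplicate removal and a shift for the transposase are not given in the sources used here. The fold deposited by the authors is a ratio, tags at the summit plus 1 over local background plus 1. For each summit the authors also deposited −log10 p and −log10 q, and all lists end at a q of 0.01. The authors' score was not used here.

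Peaks were merged into regions, a region counting as listed where any peak of a library shared at least 1 bp with it, and its fold was that of its highest summit. Pileup in tags and local background were recovered from fold and −log10 p with the caller's Poisson formula, within 0.001 for 100% of rows; the genome-wide background is the most common recovered background. Depth in reads is not given by these files. Gain and loss over 2 libraries against 2 have no test per region. The region listed in the most libraries at each locus was to be given in full, as was any gained or lost region. The members, windows and motifs were chosen with earlier results of these data known, and comparisons within 1 replicate number were added after seeing the data. Code was tested on simulated data. Partner genes of the sensors were not analysed here, since no hg19 gene positions were used. Scripts ran on Python 3.11.15 with pandas 2.3.3, numpy 2.4.6, matplotlib 3.10.9 and SciPy 1.17.1.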

Additional observations from a re-analysis of the deposited data

How the results depend on the processing

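The absence of gained and lost regions depended on the libraries used. Leaving out a library loosens the rule and can only raise these counts. The shares of all regions gained or lost under the settings of this paragraph were not computed. Leaving out 1 library at a time gave 0 to 4 gained regions for siMena11a over siControl (4 without siMena11a replicate 2), 0 to 4 lost for siMena over siControl (3 without siMena replicate 1, 4 without siControl replicate 2), 0 to 1 gained and 0 to 7 lost for siControl over untreated (7 without siControl replicate 1, 5 without untreated replicate 2), and 0 to 8 gained for siMena11a over siMena (8 without siMena11a replicate 2, 3 without siMena replicate 1). When a library's peaks had to span 50% of a region, DDX58-2 was the 1 region lost for siControl over untreated and IFIH1-1 the 1 region gained for siMena11a over siMena, and windows widened by 50 kb added 1 lost region, in the MAVS window, for siControl over untreated. That cover rule left 1 listed region in siMena11a replicate 2, 5 in siMena replicate 1 and 1 in siControl replicate 2, and a −log10 q of at least 5 left 1 in siMena11a replicate 2. Cut to the 1020 strongest peaks, siControl replicate 1 listed 1 of the 21 regions and the others 0. The shares of all regions listed under the cover, q and length settings were not computed, so these counts have no background beside them. Of the 43 regions in the widened windows, 33 were listed in siMena11a replicate 1, 16 and 1 in siMena, 28 in siControl replicate 1, and 35 and 18 in untreated libraries. Widening does not change the share of all regions listed in each library, given above.

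Of the scaled log2 differences, that of IFIH1-5 for siMena11a minus siControl turned to -0.086 with pileup over the genome-wide background and ran from 0.00 to 0.20 when 1 library was left out. For siControl minus untreated, IFIH1-1 turned to -0.24 and IFIH1-5 to -0.40 without scaling, and to -0.063 and -0.017 with pileup over the genome-wide background. Without 1 library they ran from -0.088 to 0.45 and from -0.19 to 0.24. For siControl over untreated in replicate 1, MAVS-1 turned from -0.15 to 0.18 and TMEM173-1 from -0.076 to 0.035 with that pileup. For siMena11a over siMena in replicate 1, TMEM173-1 turned from -0.40 to 0.012 without scaling, and DDX58-2 moved from -0.51 to -0.91 when the same summit was taken in both libraries. The cause was not tested.

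With the replicate number as a block, 0 regions were gained or lost in each comparison, and the smallest possible p was 0.5. The labels give the number no meaning. Over the regions listed in all 4 libraries, deviations of same-numbered libraries from their group means correlated at 0.585, 0.665, 0.306 and 0.732 for siMena11a over siControl, siMena over siControl, siControl over untreated and siMena11a over siMena.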

Other observations

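A region just outside the MDA5 window, chosen after its values were seen, was the only one within 50 kb of the 7 windows that siMena replicate 2 listed. It lay on chromosome 2 from 163200281 to 163201200 and was listed in all 8 libraries. Its fold was 13.1 and 8.93 in siMena11a libraries (replicates 1 and 2), 14.9 and 5.93 in siMena, 13.7 and 11.6 in siControl, and 16.2 and 14.0 in untreated libraries. In each group replicate 2 was the lower. Both untreated values lay above both siMena11a and both siControl values, an order shared by 13.8% of the 542 regions listed in all 8 libraries, and the untreated values overlapped those of siMena.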
